A study of Mus musculus with 28 samples.

Results

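The 8 genes described here are known from skin as direct or indirect targets of the transcription factor p63, and mutations in most of them, or in p63 itself, are linked to ectodermal dysplasia, clefting or craniofacial malformation. They were chosen by name: Edaradd, Edar, Eda2r, Fras1, Fgfr2, Fgfr3, Tfap2a and Tfap2c, out of 18193 genes that have a probe set with a single gene symbol on the array. Of the 21 probe sets that carry these 8 symbols, each gene was read from the one brightest on average. The question was whether these skin targets depend on p63 in bladder and in the proximal stomach (the forestomach of the mouse).

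Tissues of Balb/c mice, either wild type or knocked out for p63, were hybridised as total RNA to 28 Affymetrix mouse expression arrays. Bladder was taken at embryonic day (E) 15, 18 and 19, and 4 parts of the gut at E18: the proximal and the distal stomach, and the small and the large bowel. Each genotype had 2 arrays in each of these 7 tissues and stages, so 14 groups were formed and n = 2 in every group. The sources used here do not give the knockout allele, the number of animals behind an array or whether replicates are separate animals, so p-values measure the spread between these samples, which may be technical.

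p63 is the master regulator of basal cells in stratified epithelia and keeps their adhesion, proliferation and commitment genes on. In the skin and its appendages the secreted ligand ectodysplasin binds the receptor Edar, which signals to NF-kB through the adaptor Edaradd, while Eda2r is a second receptor of the family for an alternative ligand form. Fgfr2 and Fgfr3 are receptors for fibroblast growth factors (FGFs), which pass between mesenchyme and epithelium during branching, limb and tooth formation. Tfap2a and Tfap2c encode the transcription factors AP-2 alpha and AP-2 gamma, which act beside p63 in early epidermis and in the face. Fras1 encodes an extracellular matrix protein at the epithelial basement membrane that is mutated in Fraser syndrome.

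Levels are the deposited log2 values, on which 1 unit is a doubling, and changes are knockout minus wild type on that scale with limma's standard error (SE). A gene was called changed at an adjusted p under 0.05 over the 13613 genes tested. Those genes had a probe set above the median of its own array on at least 2 arrays. Of the 8 genes, 7 met that rule and are the tested genes below. Eda2r lay above the median on 1 array of 28 and was not tested in the main fit. Edar met it through its 4 proximal stomach arrays alone, and Tfap2a through the wild-type proximal stomach and 3 bladder E19 arrays, so counts over the 7 tested genes describe these genes and support nothing further. With no filter on low values the number of called genes among the 8 was the same in each of the 7 knockout comparisons.

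Array medians lay between 7.73 and 7.86 on 24 arrays and between 7.48 and 7.54 on the 4 arrays of bladder E19, of both genotypes. The E19 arrays also stood apart in the 3' actin control (14.95 to 15.04, against 14.08 to 14.53 elsewhere), so stage and array set cannot be told apart in any comparison of E19 with another stage. The difference of 3' and 5' actin control probe sets, a measure of RNA integrity and labelling, moved with genotype in 2 tissues. It was 1.12 to 1.33 in knockout against 0.69 to 0.78 in wild-type bladder E15, and 0.48 to 0.61 in knockout against 0.88 to 0.97 in wild-type proximal stomach. Trp63, the mouse gene for p63, checks the labels only in part. It was lower in knockout bladder E19 (9.44 and 9.62 against 11.67 and 12.28, adjusted p = 0.00015), missed the threshold in bladder E18 (change -1.10, adjusted p = 0.138), and was not lower in knockout proximal stomach (13.67 and 13.78 against 13.16 and 13.31, adjusted p = 0.357). In that tissue the signal of 2 further Trp63 probe sets exceeded wild type (0.91 and 1.63, adjusted p = 0.00113 and 0.00037 over probe sets). At bladder E19 the same 2 probe sets changed by -0.43 and -0.73 and were not called (adjusted p = 0.126 and 0.104 over probe sets). The called fall of Trp63 at E19 thus rests on its representative probe set. The sources used here do not say which part of Trp63 was deleted, so "knockout" below means the arrays so labelled. Krt5, the basal keratin and a classic p63 target, changed by -4.83 in knockout bladder E18 and by -5.80 in knockout proximal stomach. Markers matched the labelled tissues in wild type: the list mean was 11.82 to 13.03 for urothelial markers in bladder, 13.33 for squamous markers in proximal stomach, 13.18 for gastric gland markers in distal stomach, and 13.51 and 10.64 for intestinal markers in small and large intestine.

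**Figure D1:**
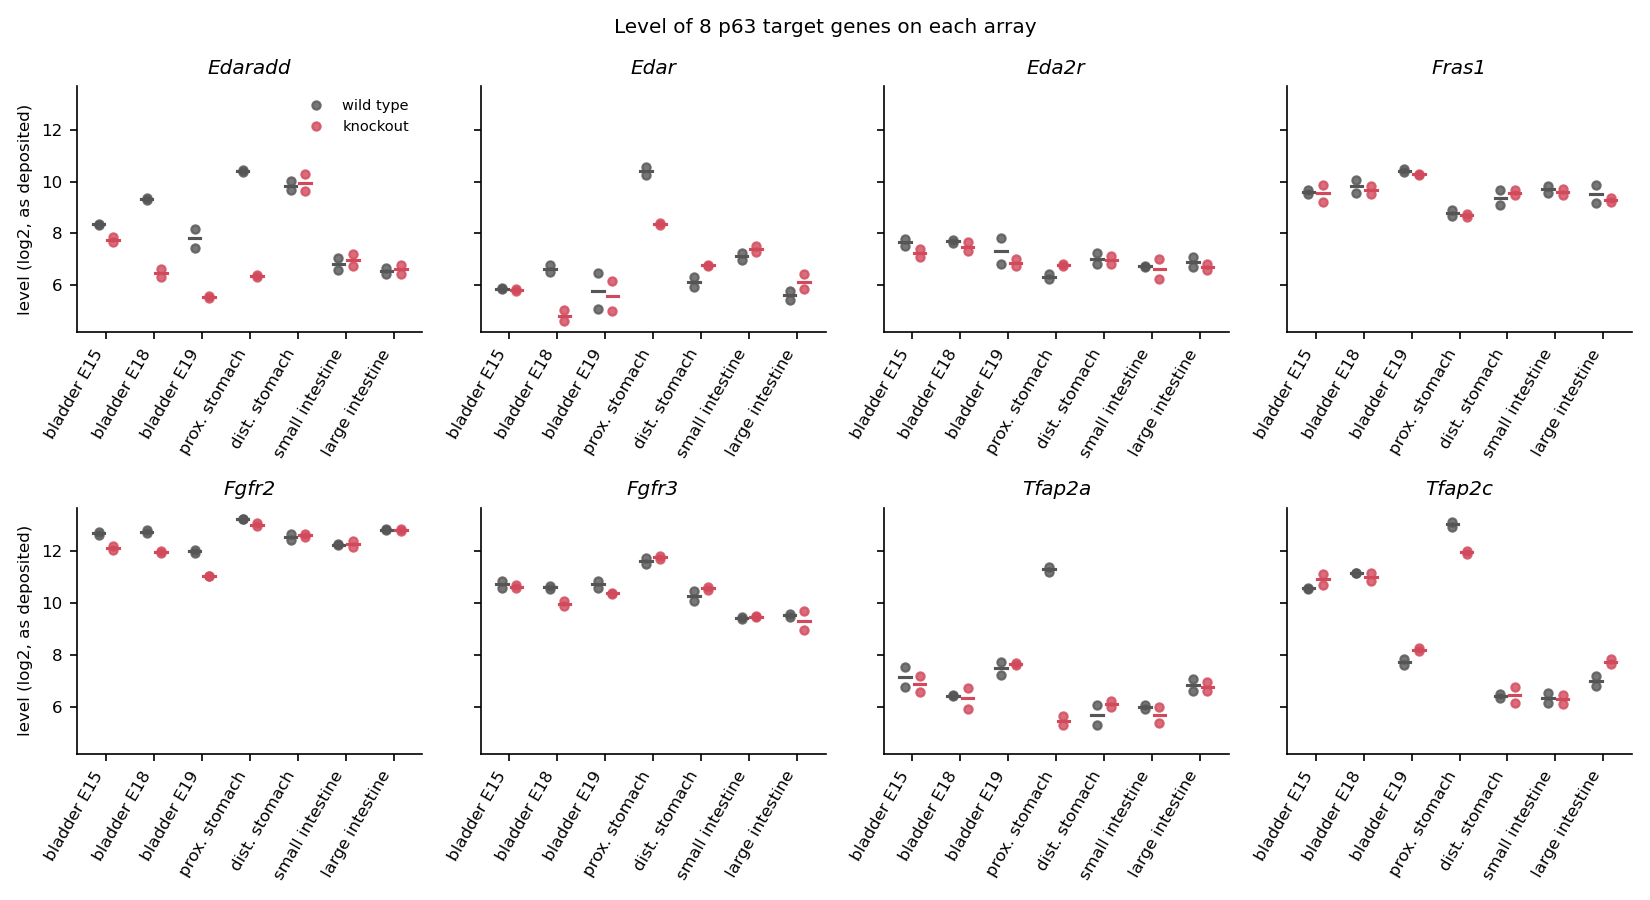
Each panel plots 1 gene: the deposited log2 level (y axis) on every array in the 7 tissues and stages (x axis), with wild type in grey and knockout in red, points for the 2 arrays of a group and a bar for their mean. Levels can be compared within a panel and not between panels. Edaradd falls in knockout bladder E18, bladder E19 and proximal stomach, Tfap2a falls in proximal stomach, and the genotypes lie close together for Fras1.

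Edaradd, the adaptor that couples Edar to NF-kB, was lower in knockout proximal stomach and in knockout bladder at E18 and E19. In proximal stomach it read 10.45 and 10.38 on the wild-type arrays and 6.33 and 6.39 on the knockout arrays. That is a change of -4.06 (SE 0.25, adjusted p = 4.7e-11), or 16.7-fold lower. In bladder E18 it read 9.30 and 9.36 in wild type and 6.33 and 6.64 in knockout. The change there was -2.84 (SE 0.25, adjusted p = 4.1e-07), or 7.16-fold lower. The 2 groups were far apart in both tissues, and the knockout values lay under the median of their arrays.

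At bladder E19 Edaradd read 7.44 and 8.19 in wild type and 5.49 and 5.58 in knockout, a change of -2.28 (SE 0.25, adjusted p = 4.5e-06). At bladder E15 the values were 8.36 and 8.34 in wild type and 7.85 and 7.66 in knockout, a change of -0.60 that missed the threshold (SE 0.25, adjusted p = 0.163). The groups did not overlap at E15 either, but they lay close together. The knockout effect on Edaradd differed between E18 and E15 by -2.24 (SE 0.36, adjusted p = 0.00232) and between E19 and E15 by -1.68 (SE 0.36, adjusted p = 0.00624). With the actin control difference as a covariate these differences between stages were -2.87 (adjusted p = 0.0568) and -2.30 (adjusted p = 0.0838). When the probe sets of Edaradd were averaged, the difference between E19 and E15 was -0.88 (adjusted p = 0.0501).

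Edaradd was also high where Trp63 was low. Distal stomach, the glandular part of the organ, gave 10.01 and 9.67 in wild type and 10.28 and 9.62 in knockout, with groups that overlapped and a change of 0.11 (SE 0.25, adjusted p = 0.996). Wild-type distal stomach thus stood next to wild-type proximal stomach in the order of levels (means of 9.84 ± 0.24 and 10.42 ± 0.05, SD), and the difference between them missed the threshold (0.57, adjusted p = 0.0760), though not with the actin covariate (0.83, adjusted p = 0.0399). Trp63 read 7.03 and 7.20 in the same distal stomach arrays. In small and large intestine Edaradd stayed between 6.44 and 7.21 on the 8 arrays, under the array medians.

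Edar, the receptor itself, was high in proximal stomach and low elsewhere. In proximal stomach it read 10.24 and 10.56 in wild type and 8.33 and 8.42 in knockout, a change of -2.02 (SE 0.36, adjusted p = 0.00017), or 4.07-fold lower. The knockout arrays of proximal stomach still read higher for Edar than any array of another tissue. In bladder E18 the values were 6.50 and 6.78 against 4.62 and 5.04, a change of -1.81 (SE 0.36, adjusted p = 0.00645). Every bladder value lay under its array's median, and the call was lost without knockout array 1 (-1.60, adjusted p = 0.0805) or without wild-type array 2 (-1.67, adjusted p = 0.0959).

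At bladder E15 Edar read 5.87 and 5.88 in wild type and 5.86 and 5.77 in knockout (change -0.06, adjusted p = 0.945). At bladder E19 it read 5.09 and 6.49 against 6.17 and 5.0, 2 groups that overlapped fully (change -0.20, adjusted p = 0.746). The knockout effect on Edar did not pass the test of a difference between E18 and E15 (-1.75, SE 0.52, adjusted p = 0.145) or between proximal stomach and bladder E18 (-0.22, SE 0.52, adjusted p = 0.813).

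Eda2r, the alternative receptor, ran between 6.23 and 7.81 over the 28 arrays. Without the filter its change lay between -0.45 and 0.43 in the 7 tissues and stages, with adjusted p from 0.293 to 0.999 over 18193 genes and none of the 7 at an unadjusted p under 0.05. Its mean change over the 3 bladder stages was -0.35 (SE 0.16, unadjusted p = 0.0428, adjusted p = 0.159). It was highest in wild-type bladder E18 (7.64 and 7.75) and lowest in wild-type proximal stomach (6.23 and 6.44). Levels under the array median limit what loss of Eda2r these arrays can show.

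The promoters of the 3 genes with the largest falls are shown because they moved together in proximal stomach and differ in what they hold. Each is the 250 bases before the RefSeq start (GRCm38.p6, read 5' to 3' on the gene's strand) of Edaradd (chr13:12520451-12520700, minus strand), Edar (chr10:58675697-58675946, minus strand) and Tfap2a (chr13:40734921-40735170, minus strand, the 1st of its listed starts). Capitals mark 2 copies of CNNG with 6 bases between them, the loose core of a p53-family response element.
Edaradd: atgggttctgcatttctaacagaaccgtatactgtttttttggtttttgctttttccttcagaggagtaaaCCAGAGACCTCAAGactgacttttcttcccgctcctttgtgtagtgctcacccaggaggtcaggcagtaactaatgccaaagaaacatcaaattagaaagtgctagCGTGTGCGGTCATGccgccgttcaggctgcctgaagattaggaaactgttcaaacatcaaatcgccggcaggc
Edar: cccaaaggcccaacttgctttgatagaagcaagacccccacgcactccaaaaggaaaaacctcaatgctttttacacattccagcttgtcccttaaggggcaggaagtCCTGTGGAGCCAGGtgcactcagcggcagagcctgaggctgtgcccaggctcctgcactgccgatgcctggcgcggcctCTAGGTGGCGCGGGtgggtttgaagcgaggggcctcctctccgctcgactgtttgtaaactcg
Tfap2a: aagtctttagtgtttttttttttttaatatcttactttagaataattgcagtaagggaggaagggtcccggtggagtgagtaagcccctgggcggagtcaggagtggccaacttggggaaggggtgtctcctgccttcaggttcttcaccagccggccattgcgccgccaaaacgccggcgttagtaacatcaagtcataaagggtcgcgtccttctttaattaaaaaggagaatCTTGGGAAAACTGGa
Edaradd and Edar each held 2 such pairs, and Tfap2a held 1, at bases -15 to -2 from the start. Of the 8 listed promoters of the 6 genes matched in the RefSeq table, 7 held a pair (87.5%), against 63.5% of 32851 promoters of the same length. The single promoter without it was that of Fgfr2. The AP-2 core GCCNNNGGC occurred in 1 of the 8 (12.5%, Edar, as GCCTGAGGC from base -112), against 13.7% of all promoters. The AP-2 match of Edar lies outside its capitals. Both patterns read the same on either strand. These are matches of letters in this window and say nothing of binding.

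Fgfr2, the receptor whose epithelial splice form is read by mesenchymal FGFs, was lower in knockout bladder at all 3 stages, by less than 2-fold. At E15 it read 12.76 and 12.64 in wild type and 12.05 and 12.21 in knockout (change -0.57, SE 0.09, adjusted p = 0.00111). At E18 it read 12.70 and 12.82 against 12 and 11.94 (change -0.79, SE 0.09, adjusted p = 2.4e-05). At E19 it read 12.06 and 11.94 against 11.06 and 11.04 (change -0.95, SE 0.09, adjusted p = 1.1e-06). The groups did not overlap at any stage. With the actin control difference as a covariate the E15 change was -0.39 and no longer called (adjusted p = 0.858), while the E18 and E19 calls stood under each of the 14 alternatives run.

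In proximal stomach Fgfr2 read 13.23 and 13.26 in wild type and 13.11 and 12.96 in knockout, a change of -0.21 that missed the threshold (SE 0.09, adjusted p = 0.0930). The knockout effect in proximal stomach was smaller than in bladder E18 by 0.58 (SE 0.13, adjusted p = 0.00285). With the actin covariate this difference was 0.46 (adjusted p = 0.0659), and with the probe sets averaged it was 0.46 (adjusted p = 0.0507). The other tested probe set of Fgfr2 gave -0.71 in proximal stomach and was called there (SE 0.19, adjusted p = 0.00729 over 28866 probe sets), and the average of the gene's probe sets was called too (-0.46, adjusted p = 0.00438). The call in stomach thus depends on the probe set.

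Fgfr3, a receptor known in urothelium for its activating mutations in bladder tumours, changed little. At bladder E18 it read 10.56 and 10.66 in wild type and 10.09 and 9.88 in knockout, a change of -0.63 that missed the threshold (SE 0.18, adjusted p = 0.0648). The mean over the 3 bladder stages was -0.36 (SE 0.10, adjusted p = 0.0198). That call was lost with the actin covariate (adjusted p = 0.0990), without the E19 arrays (-0.36, adjusted p = 0.0779), and without any of 4 single arrays: knockout E15 array 1 (-0.33, adjusted p = 0.0586), knockout E18 array 2 (-0.32, adjusted p = 0.0552), wild-type E15 array 1 (-0.31, adjusted p = 0.0750) and wild-type E19 array 1 (-0.31, adjusted p = 0.0602). In proximal stomach the values were 11.52 and 11.75 in wild type and 11.71 and 11.82 in knockout, with overlapping groups (change 0.13, SE 0.18, adjusted p = 0.622).

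Tfap2a, which encodes AP-2 alpha, showed the largest change of the 8 and in proximal stomach alone among the 7 tissues and stages. It read 11.41 and 11.20 on the wild-type arrays and 5.63 and 5.28 on the knockout arrays of proximal stomach. The change was -5.85 (SE 0.33, adjusted p = 8.6e-12), or 57.6-fold lower in the deposited values. Both knockout values lay under the array medians, near the lowest of the intestine (5.39 to 7.08), so the size of the fold rests on low signals. In bladder it read 6.41 to 7.72 on the 6 wild-type arrays and 5.91 to 7.69 on the 6 knockout arrays, ranges that overlap. All but 1 of these wild-type values lay under the array median, which limits what loss of Tfap2a bladder can show. The bladder changes were -0.28, -0.10 and 0.18 at E15, E18 and E19 (SE 0.33 each, adjusted p = 0.671, 0.942 and 0.745).

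Tfap2c, which encodes AP-2 gamma, was by contrast well expressed in both tissues. In proximal stomach it read 12.94 and 13.15 in wild type and 11.90 and 12.02 in knockout, a change of -1.09 (SE 0.21, adjusted p = 0.00038), or 2.13-fold lower. With the actin covariate the change was -0.99 (adjusted p = 0.0513). In bladder E18 it read 11.17 and 11.17 in wild type and 11.17 and 10.85 in knockout, which overlap (change -0.16, SE 0.21, adjusted p = 0.803). At bladder E15 (10.58 and 10.56 against 10.70 and 11.13) and E19 (7.85 and 7.62 against 8.25 and 8.14) the knockout values were the higher ones, by 0.35 and 0.46, and neither passed the test (adjusted p = 0.347 and 0.133). The other kept probe sets of Tfap2c gave 0.47 and 0.59 at E15 but -0.11 and -0.13 at E19, and none of these was called. The direction at E19 thus depends on the probe set.

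In large intestine Tfap2c read 6.80 and 7.18 in wild type and 7.84 and 7.65 in knockout, a rise of 0.76 that missed the threshold (SE 0.21, adjusted p = 0.350). Another probe set of the gene, at 5.70 and 5.71 against 7.58 and 6.94, passed it over the 28866 probe sets (change 1.55, SE 0.25, adjusted p = 0.0134). The average of the gene's probe sets was called as well (1.13, adjusted p = 0.00279). This was the sole rise called for any of these genes in a knockout comparison, and it rests on levels under the array medians.

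No change of Fras1 was called in any tissue. It read 8.68 and 8.89 in wild-type and 8.76 and 8.63 in knockout proximal stomach, and 10.08 and 9.55 against 9.83 and 9.52 in bladder E18. Its changes lay between -0.23 and 0.19 in the 7 tissues and stages (SE 0.24 each), with adjusted p of 0.737 or above, on values above the array median on 28 of 28 arrays. The other probe set of Fras1 was lower by 0.80 in knockout bladder E19 (8.74 and 8.52 against 7.77 and 7.88, SE 0.26, adjusted p = 0.0346 over probe sets), where the representative one gave -0.14.

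**Figure D2:**
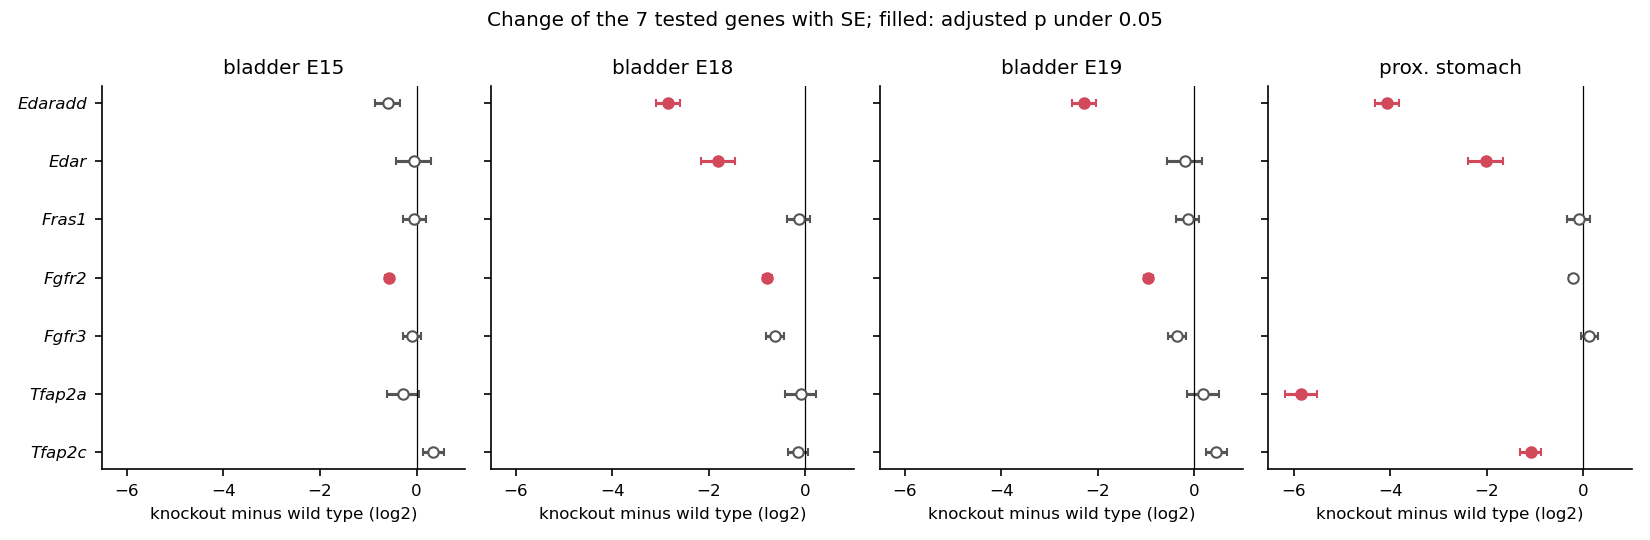
The x axis is the change (knockout minus wild type, log2) of the 7 tested genes (y axis) in bladder E15, E18, E19 and proximal stomach, with bars for limma's SE from 28 arrays and filled red points for an adjusted p under 0.05. Fgfr2 is the gene called in the 3 bladder stages but not in proximal stomach, and Tfap2a and Tfap2c are called in proximal stomach alone of the 4 panels.

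In counts, 1 of the 7 tested genes was lower in knockout bladder E15 (Fgfr2), where 2.49% of all tested genes were. In bladder E18 it was 3 of 7 (Edaradd, Edar, Fgfr2) against 1.67%. In bladder E19 it was 2 of 7 (Edaradd, Fgfr2) against 6.5%, and in proximal stomach 4 of 7 (Edaradd, Edar, Tfap2a, Tfap2c) against 14.6%. None of the 7 was higher in these 4 comparisons. The median change of the 7 was -0.09, -0.63, -0.20 and -1.09, against 0.07, 0.02, 0.09 and 0.02 over all tested genes.

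The mean over the 3 bladder stages called 4 of 7 lower (background 7.03%): Edaradd (-1.90, SE 0.15, adjusted p = 1.8e-08), Fgfr2 (-0.77, SE 0.05, adjusted p = 5.8e-09), Edar (-0.69, SE 0.21, adjusted p = 0.0245) and Fgfr3. Over E15 and E18 alone, without the arrays that stand apart, 3 of 7 were lower (background 3.78%), with Edaradd at -1.72 and Fgfr2 at -0.68. Edar's call in the mean over the 3 stages held under 15 of 23 alternatives. Among others, it was lost with the actin covariate (-0.68, adjusted p = 0.123). It was also lost without any of 6 single arrays, of which knockout E19 array 2 moved it most in p (-0.50, adjusted p = 0.101). The others were wild-type E19 array 2 (-0.46, adjusted p = 0.0934), knockout E18 array 1 (-0.62, adjusted p = 0.0694), wild-type E18 array 2 (-0.65, adjusted p = 0.0643), wild-type E15 array 1 (-0.69, adjusted p = 0.0554) and knockout E15 array 1 (-0.71, adjusted p = 0.0510).

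In distal stomach and in the small and large intestine none of the 7 was called by limma, where 0.0%, 0.0% and 0.0882% of all genes were. At an unadjusted p under 0.05 the counts were 0, 0 and 1 of 7 (Tfap2c in large intestine), against 528, 626 and 665 of 13613 genes.

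The knockout effect was then compared between proximal stomach and bladder E18, where 22.8% of all genes differed. It differed for 5 of 7: more negative in proximal stomach for Tfap2a (-5.75, SE 0.46, adjusted p = 7.6e-09), Edaradd (-1.22, SE 0.36, adjusted p = 0.0168) and Tfap2c (-0.93, SE 0.30, adjusted p = 0.0286), and less negative for Fgfr2 (above) and Fgfr3 (0.76, SE 0.26, adjusted p = 0.0365). In wild-type bladder E18 Tfap2a read 6.41 and 6.44, under the array medians, so a fall could hardly show there. With that limit, the Tfap2a difference was called under each of 18 alternatives. That of Edaradd was lost when its probe sets were averaged (-0.11, adjusted p = 0.829), without knockout bladder E18 array 2 (-1.06, adjusted p = 0.0708) and without wild-type proximal stomach array 1 (-1.18, adjusted p = 0.0534). Those of Tfap2c and Fgfr3 were each lost without any of 6 of the 8 arrays (adjusted p up to 0.121 and 0.145), and with the actin covariate (-0.84 and 0.77, adjusted p = 0.161 and 0.137). With probe sets averaged the Fgfr3 difference was 0.47 (adjusted p = 0.136), and its other kept probe set gave 0.19 (adjusted p = 0.762 over probe sets).

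Between bladder stages, 1 of 7 effects differed from E15 to E18 (Edaradd, with 0.61% of all genes), 1 from E15 to E19 (Edaradd, with 8.59%) and 0 from E18 to E19 (with 5.27%; 1 of 7 at an unadjusted p under 0.05, Edar). With probe sets averaged, Edaradd differed from E18 to E19 as well (1.86, adjusted p = 0.00061). These comparisons share control arrays, and those with E19 carry the shift of the E19 arrays.

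**Figure D3:**
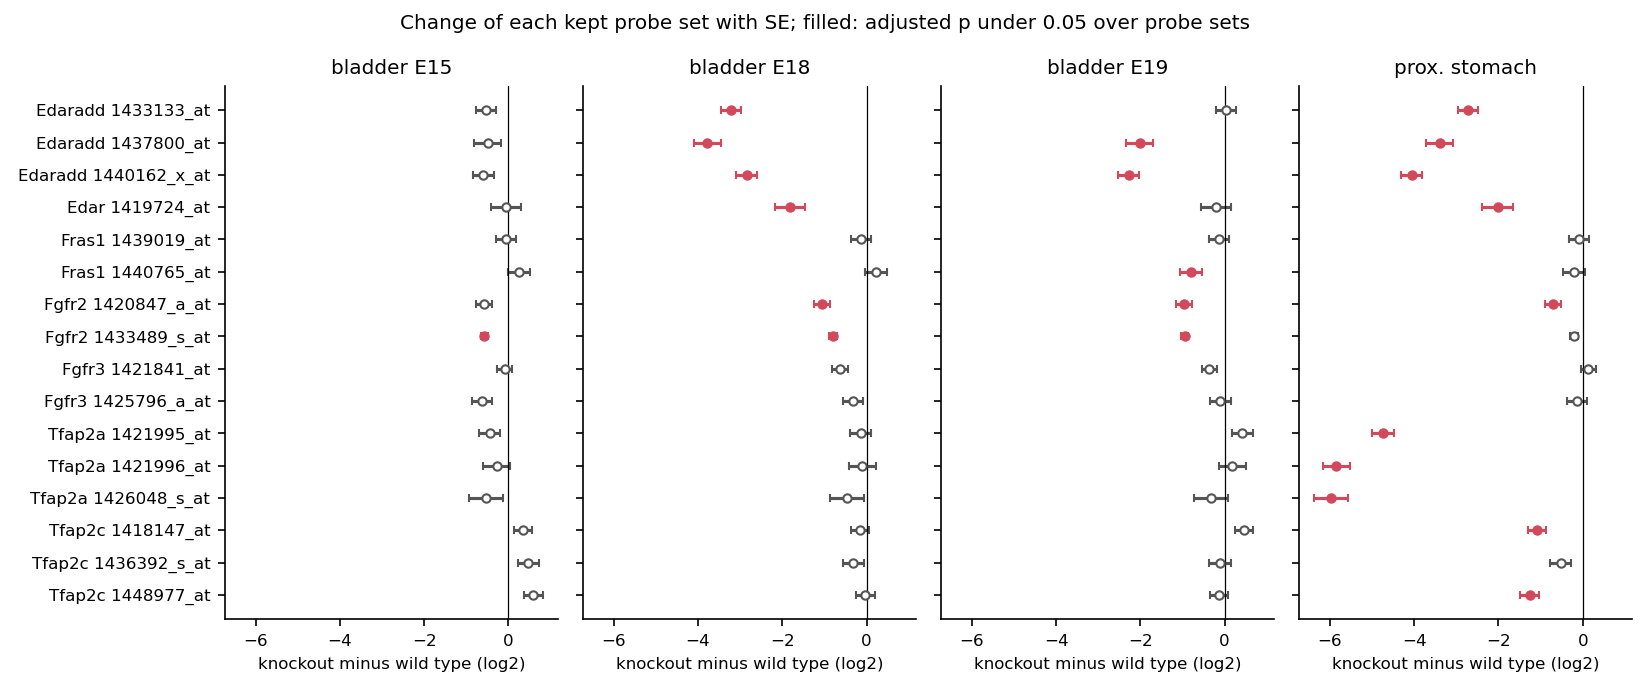
Change (knockout minus wild type, log2, x axis) of each of the 16 kept probe sets of the 7 tested genes (y axis) in bladder E15, E18, E19 and proximal stomach, with bars for limma's SE and filled red points for an adjusted p under 0.05 over 28866 probe sets. The 3 probe sets of Edaradd fall together in bladder E18 and proximal stomach, and 1 of them is flat at bladder E19.

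Probe sets of the same gene mostly moved together. The 3 kept probe sets of Edaradd changed by -2.84, -3.22 and -3.78 in bladder E18 and by -4.06, -2.72 and -3.39 in proximal stomach, and each was called in both. Which tissue shows the larger fall depends on the probe set: the representative one, given first, fell more in proximal stomach and the others in bladder E18. At bladder E19 they gave -2.28, 0.04 and -2.02, with the middle one not called (adjusted p = 0.936). The flat one read 6.39 and 6.33 in wild type and 6.64 and 6.15 in knockout there, under the array medians. The 3 probe sets of Tfap2a changed by -4.74, -5.85 and -5.97 in proximal stomach, and none of them was called in bladder. Of the 3 for Tfap2c, 2 were called in proximal stomach (-1.09 and -1.26) and the other gave -0.52 (adjusted p = 0.126).

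Among the wild-type tissues, proximal stomach was the site of highest expression for 6 of the 8 genes by their representative probe sets. For Edaradd the other 2 kept probe sets were highest in bladder E18 (means of 8.66 and 8.68, against 8.33 and 8.32 in proximal stomach). Proximal stomach exceeded distal stomach in 5 of the 7 tested genes. Of all 13613 tested genes, 2474 were higher and 3030 lower there (40.4% in either direction). The 5 were Tfap2c by 6.65 (SE 0.21, adjusted p = 7.1e-16), Tfap2a by 5.63, Edar by 4.28, Fgfr3 by 1.38 and Fgfr2 by 0.70. Proximal stomach exceeded bladder E18 in 6 of 7, where 3045 of all genes were higher and 3303 lower (46.6% in either direction). The 6 were Tfap2a by 4.88, Edar by 3.76, Tfap2c by 1.88, Edaradd by 1.09, Fgfr3 by 1.02 and Fgfr2 by 0.48. Fras1 ran the other way, with a difference of -1.03 between proximal stomach and bladder E18 (SE 0.24, adjusted p = 0.00139). With probe sets averaged the Edaradd difference to bladder E18 was 0.13 (adjusted p = 0.604), and with the actin covariate that of Fras1 was -0.64 (adjusted p = 0.184).

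The order of wild-type Tfap2c levels ran from proximal stomach (13.05 ± 0.15, SD) through bladder E18, E15 and E19 (11.17 ± 0.00, 10.57 ± 0.02 and 7.74 ± 0.16) to large intestine (6.99 ± 0.27). Distal stomach (6.40 ± 0.11) and small intestine (6.33 ± 0.28) overlapped at the bottom. Trp63 was likewise highest in proximal stomach and bladder E18, but ordered bladder E19 and E15, and distal stomach and large intestine, the other way: it was 13.24, 12.41, 11.97 and 10.75 in proximal stomach and bladder E18, E19 and E15, and at most 7.12 elsewhere. For Fgfr3 proximal stomach led (11.63 ± 0.16), the 3 bladder stages overlapped one another (10.73 ± 0.20, 10.73 ± 0.21 and 10.61 ± 0.07), and small intestine was lowest (9.42 ± 0.06). Wild-type Fgfr2 means spanned 12 (bladder E19) to 13.25 (proximal stomach), and bladder E18, bladder E15 and distal stomach overlapped in between.

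The 14 group means rest on 28 arrays, with the E19 arrays that stand apart among them. Over these means Pearson's r with Trp63 was 0.87 for Tfap2c, 0.866 for Fgfr3, 0.413 for Tfap2a, 0.301 for Edar, 0.212 for Edaradd, 0.151 for Fgfr2 and -0.163 for Fras1. Over the 7 wild-type means it was 0.848, 0.911, 0.642, 0.424, 0.603, 0.284 and -0.002 in the same order of genes. The Trp63 probe set does not fall in knockout proximal stomach, so the values over 14 means carry that level. They are given as a description without a test.

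From E15 to E18 in wild-type bladder, 2 of 7 rose and 0 fell. Of all 13613 tested genes, 2333 rose and 3797 fell (45.0% changed in either direction). The 2 were Edaradd, by 0.98 (SE 0.25, adjusted p = 0.00377), and Tfap2c, by 0.60 (SE 0.21, adjusted p = 0.0259). The Tfap2c call was lost without any of the 4 arrays (adjusted p from 0.0877 to 0.0972). From E18 to E19, 6 of 7 changed (with 63.1% of all genes), Tfap2c by -3.43 and Edaradd by -1.51. The Edar call (-0.85, adjusted p = 0.0486) was lost without either E18 array (-0.99 and -0.71, adjusted p = 0.0735 and 0.199) or without E19 array 1 (-0.15, adjusted p = 0.755). That of Fras1 was lost without E18 array 2 (0.35, adjusted p = 0.312) or either E19 array (0.68 and 0.55, adjusted p = 0.0635 and 0.124), and that of Tfap2a without E19 array 2 (0.81, adjusted p = 0.0912). The probe sets of a gene also went apart: those of Tfap2c gave -3.43, -1.67 and -0.37, those of Fgfr2 -0.76 and 0.86, those of Fras1 0.61 and -1.21, and those of Tfap2a 1.05, -0.85 and -1.20. The E18 to E19 values are therefore given without a direction for Fgfr2, Fras1 and Tfap2a.

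The pathways around these genes were followed with lists of other genes, leaving out the 8. Listed genes passed the same filter on low values, which a gene high in a single group can meet through that group. Counts over the lists are therefore a description. Of the ectodysplasin and NF-kB list, 14 of 18 genes were measured; the ligand gene Eda was not among them. In proximal stomach, where 1984 of all 13613 tested genes fell and 2464 rose, 3 of the 14 fell and 1 rose. Tnfrsf19, a receptor of the same family, changed by -1.42 (SE 0.19, adjusted p = 4e-06), Traf6, the ubiquitin ligase downstream of Edaradd, by -0.80 (SE 0.16, adjusted p = 0.00045) and Nfkbia, the NF-kB inhibitor and target, by -0.51. Cyld, a deubiquitinase that dampens NF-kB, rose by 0.42. In bladder E18 0 of 14 was called (1 at an unadjusted p under 0.05). In bladder E19, where 6.5% of all genes fell, Traf6 and Nfkbia changed by -0.58 and -0.43. In the mean over the 3 bladder stages 2 of the 14 rose and 0 fell, where 1900 of all 13613 tested genes rose and 957 fell. Without E19, 1 rose and 0 fell, where 917 and 515 of all genes did. The list's median change was -0.02 in proximal stomach and 0.14 in bladder E18, against 0.02 in both over all genes.

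Of the FGF list, 19 of 24 were measured. In proximal stomach, where 2464 of all 13613 tested genes rose and 1984 fell, 6 of the 19 rose and 3 fell. The rises included Fgf1 (8.48 and 7.06 to 11.04 and 10.86), Etv5 (8.53 and 9.29 to 11.20 and 11.23), a transcription factor induced by FGF signalling, and Dusp6 (10.68 and 11.34 to 12.45 and 12.66), a phosphatase induced by it. Their changes were 3.18 (SE 0.51, adjusted p = 4.8e-05), 2.31 (SE 0.26, adjusted p = 5.7e-07) and 1.54 (SE 0.20, adjusted p = 3.2e-06). Fgf22, a ligand made by epithelium, fell by 1.47 (SE 0.19, adjusted p = 2.3e-06).

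In bladder the mean over the 3 stages called 0 higher and 4 lower of 19, and 2 lower without E19. Over all genes 7.03% were lower, and 3.78% without E19. The 4 were Etv5 (-0.52, SE 0.15, adjusted p = 0.0190), Spred2 (-0.46, SE 0.08, adjusted p = 0.00031), Dusp6 (-0.35, SE 0.12, adjusted p = 0.0339) and Spred1 (-0.31, SE 0.10, adjusted p = 0.0336). The difference of the knockout effect between proximal stomach and bladder E18 was 2.91 for Etv5 (SE 0.37, adjusted p = 5.9e-06), 2.86 for Fgf1 (SE 0.72, adjusted p = 0.00614), -1.80 for the ligand gene Fgf18 (SE 0.61, adjusted p = 0.0387) and -1.63 for Fgf22 (SE 0.26, adjusted p = 9.8e-05). In all, 5 of the 19 differed upward and 2 downward, and the smaller upward ones included Dusp6 (1.49, SE 0.28, adjusted p = 0.00055) and Spred2 (0.91, SE 0.19, adjusted p = 0.00122), named after their values were seen. Etv5 and Dusp6 were thus higher in knockout proximal stomach and lower in the knockout bladder mean, which holds the E19 arrays. The listed genes were not followed with the actin covariate or without single arrays. The list's medians were 0.09 in proximal stomach and 0.04 in the bladder mean, against 0.02 and 0.06 over all genes.

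Among AP-2 genes and their partners, 5 of 6 measured genes fell in knockout proximal stomach, where 14.6% of all genes fell, and 1 rose (Cited2, a coactivator gene, by 0.71). Tfap2e, the gene for AP-2 epsilon, went from 9.58 and 8.27 to 4.91 and 4.85 (change -4.04, SE 0.31, adjusted p = 1.6e-09), so the 3 AP-2 genes measured here, Tfap2a, Tfap2c and Tfap2e, all fell there. Kctd15 and Kctd1, whose products repress AP-2 alpha, changed by -1.57 and -1.08 (adjusted p = 3.4e-06 and 0.00021), and Cited4, a coactivator gene, by -1.08. In the bladder mean 0 fell and 3 rose: Cited4 by 0.71, Kctd1 by 0.66 and Cited2 by 0.31. Of all 13613 tested genes, 957 fell and 1900 rose there. Without E19, 1 of the 6 rose and 0 fell. The median change was -1.08 in proximal stomach and 0.27 in the bladder mean, against 0.02 and 0.06 over all genes.

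Of the Fraser complex and its partners, 6 of 8 were measured. Col7a1, the anchoring fibril collagen of skin, fell from 10.61 and 10.32 to 6.86 and 6.75 in proximal stomach (change -3.66, SE 0.18, adjusted p = 9.2e-13) and from 8.21 and 8.11 to 6.74 and 6.88 in bladder E18 (change -1.35, SE 0.18, adjusted p = 1e-04). Frem2, whose protein forms a complex with that of Fras1, changed by -0.76 in proximal stomach (SE 0.17, adjusted p = 0.00124), and Grip1, which binds the Fras1 protein, by -0.73 (SE 0.21, adjusted p = 0.0105). No other gene of the list was called in these 2 tissues.

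**Figure D4:**
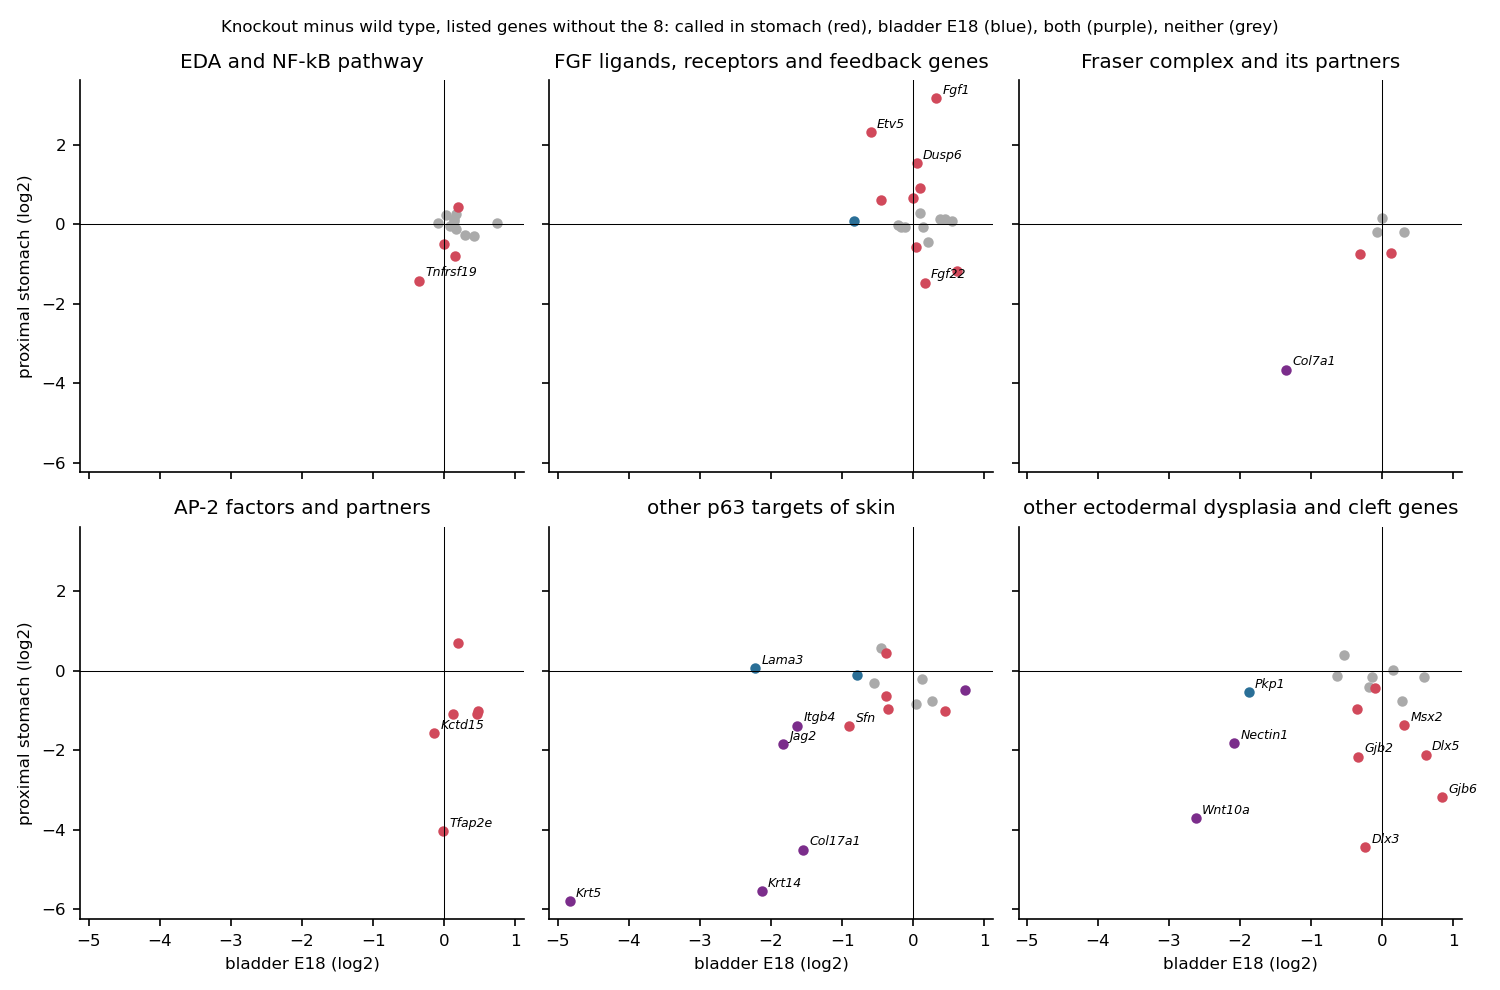
Each point is a listed gene, without the 8, with its change (knockout minus wild type, log2) in bladder E18 on the x axis and in proximal stomach on the y axis; red was called in proximal stomach, blue in bladder E18, purple in both and grey in neither. Krt5, Krt14 and Wnt10a lie far down and to the left, while Tfap2e and Dlx3 lie far down with little change in bladder, and Fgf1, Etv5 and Dusp6 lie high in proximal stomach and were not called in bladder E18.

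For comparison, 18 of 20 other p63 targets of skin were measured. In proximal stomach 10 fell and 1 rose, in bladder E18 7 fell and 1 rose, and in bladder E15 1 fell and 4 rose. Of all 13613 tested genes, 1984 fell and 2464 rose in proximal stomach, 228 and 213 in bladder E18, and 339 and 620 in bladder E15. Krt5, Krt14 and Col17a1 led in proximal stomach (-5.80, -5.54 and -4.50), and Krt5, Lama3 and Krt14 in bladder E18 (-4.83, -2.22 and -2.13). Of 17 measured genes of other ectodermal dysplasias and clefts, 9 fell in proximal stomach, led by Dlx3 (12.62 and 12.51 to 8.15 and 8.10), Wnt10a and Gjb6 (-4.43, -3.71 and -3.18), and 3 fell in bladder E18: Wnt10a, Nectin1 and Pkp1 (-2.62, -2.08 and -1.88). Wnt10a and Nectin1 were called lower in both tissues, as Edaradd and Edar were, and Dlx3 in proximal stomach alone of these 2, as Tfap2a was. The medians of the 2 lists were -0.79 and -0.75 in proximal stomach and -0.50 and -0.18 in bladder E18, against 0.02 over all genes in both. The lists overlap, with Cdh3 and Grhl3 in both.

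The cell types behind these values moved as well. Of all 13613 tested genes, 1984 fell and 2464 rose in proximal stomach, and 228 and 213 in bladder E18. In bladder E15 339 fell and 620 rose, and in the bladder mean 957 and 1900. The list of basal markers shares Krt5, Krt14, Col17a1, Itgb4, Lama3 and Bnc1 with that of other p63 targets. In bulk tissue fewer cells of a type and less RNA per cell cannot be told apart. In proximal stomach 7 of 9 squamous markers fell (list mean 13.20 to 13.47 in wild type, 8.26 to 8.35 in knockout), as did 5 of 9 basal markers (11.99 to 12.16 against 9.57 to 9.60). The squamous group means were 5.66 to 7.36 in the other tissues. These markers can thus pass the filter through proximal stomach, and their count supports nothing further. In proximal stomach 6 of 7 urothelial markers rose (7.45 to 7.54 against 11.03 to 11.27), as did 6 of 8 gastric gland markers (5.68 to 6.38 against 7.75 to 8.92) and 10 of 15 general epithelial markers (11.79 to 12.01 against 12.71 to 12.83), of which 1 fell. Tfap2a, Tfap2c, Edar and Edaradd fell on the same arrays, and the part of these marker shifts in their changes was not tested.

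In bladder E18 6 of 9 basal markers fell (10.11 to 10.33 against 8.12 to 8.26), while 0 of 7 urothelial and 2 of 15 general epithelial markers changed, the latter upward. In bladder E15, where Fgfr2 alone of the 7 was called, 2 of 9 basal markers fell and 11 of 15 general epithelial markers rose (11.13 to 11.20 against 11.83 to 11.93), as did 3 of 7 urothelial markers and 3 of 7 markers of neural crest, neurons and glia (7.63 to 8.08 against 8.32 to 8.79). In the mean over the 3 bladder stages 5 of 7 urothelial and 4 of 7 neural markers rose. Skeletal muscle markers were uneven among the knockout arrays: their mean was 10.29 and 8.63 at E18 and 6.90 and 8.52 at E15, against 8.40 to 8.49 and 6.53 to 6.71 in wild type. In proximal stomach they read 7.80 to 8.51 in wild type and 6.62 to 7.14 in knockout, and 3 of 8 fell. Their part in the changes of the 8 genes was not tested.

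**Figure D5:**
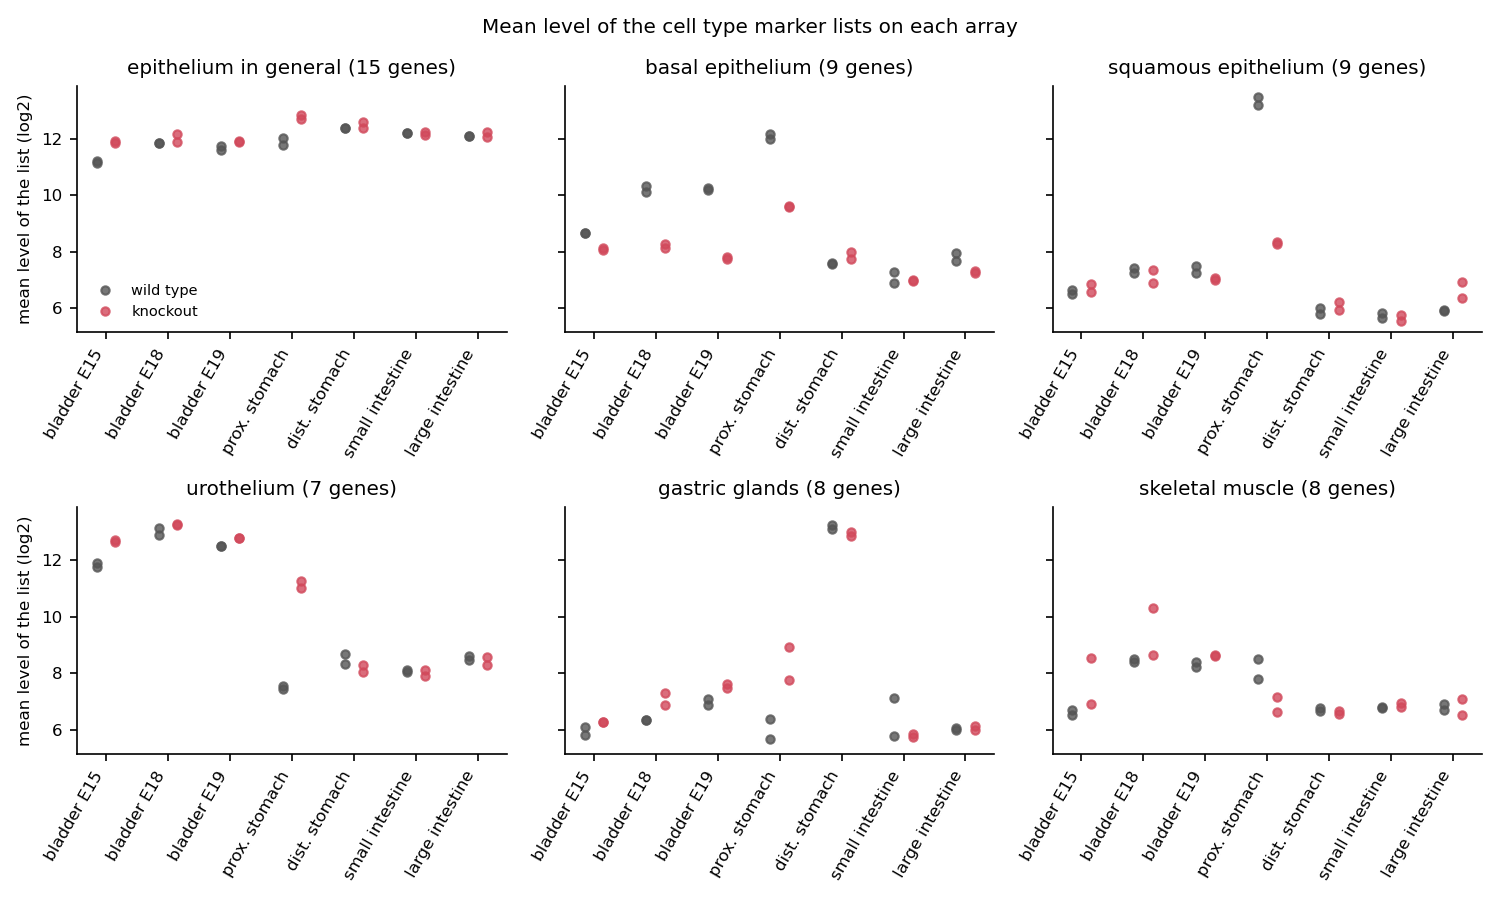
Mean log2 level of each marker list (y axis) on every array in the 7 tissues and stages (x axis), wild type in grey and knockout in red, with 2 points a group. Squamous and basal markers fall and urothelial markers rise in knockout proximal stomach, and basal markers fall in knockout bladder E18 and E19.

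The genes whose pattern over the 14 group means was most like each member were found by Pearson's r, as a description over means that share their arrays. For Tfap2a they were Cpa4 (0.964), Smpd1 (0.955) and Dlx4 (0.954), and for Tfap2c Prkch (0.942), Psmd12 (0.939) and Ago4 (0.926). For Edar they were Otop3 (0.944), Sult2b1 (0.936) and Srcap (0.911). Edaradd had no pattern as close: Slc19a2 (0.832), Mir205hg (0.815), the host gene of a microRNA of basal cells, and Mreg (0.800) came nearest. For Fgfr2 they were Zcchc2 (0.903), Rbms1 (0.890) and Slc22a15 (0.888), for Fgfr3 Pitx1 (0.946), Elf5 (0.928) and Nxpe4 (0.916), and for Fras1 Vegfb (0.936), Mgst1 (0.931) and Ugp2 (0.929).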

How the data were processed

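The deposited file holds 1 log2 value per probe set and array, from 2.98 to 15.4. Per the submitters' processing notes, the authors used Affymetrix Expression Console and Partek; how values were summarized and normalized is not stated there. RNA was extracted with Trizol and labelled with a 3' IVT kit, per the labels' protocols. No further normalization was applied. Of 45101 probe sets, 64 controls were left out, and 34945 of the rest carry 1 gene symbol, 932 several and 9160 none. A probe set was kept if above its own array's median on at least 2 arrays (28866), and the kept probe set with the highest mean stood for its gene (13613 genes). One limma 3.58.1 model (R 4.3.3) held the 28 arrays with a mean per group (14 residual and 6.19 prior degrees of freedom, variance trend). P-values are two-sided, with Benjamini-Hochberg adjustment over the genes of a contrast. The number of arrays limits the precision. Simulated data with known changes were used to check the scripts. The 8 genes, the lists and the tests were chosen with earlier results of these data known. From each list, up to 4 genes with the largest change among those called were named in a contrast spoken of, and for each of the 8 genes the 3 genes of highest correlation; exceptions are marked, and the keratins of the closing section were chosen after their values were seen. Alternatives were another normalization, filter, probe set rule, variance model, array weights, an actin covariate, a replicate block and leaving out each array. The mean over bladder E15 and E18 was added after seeing the data. Figures and joins used Python 3.11.15.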

Additional observations from a re-analysis of the deposited data

Results flagged for a closer look

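The difference of the knockout effect between proximal stomach and bladder E18 passed limma's test for 5 genes: Tfap2a (-5.75, adjusted p = 7.6e-09), Edaradd (-1.22, adjusted p = 0.0168), Tfap2c (-0.93, adjusted p = 0.0286), Fgfr3 (0.76, adjusted p = 0.0365) and Fgfr2 (0.58, adjusted p = 0.00285). For Tfap2a both knockout arrays lay below both wild-type arrays in proximal stomach. In bladder E18 the groups overlapped at levels under the array medians, where a fall could hardly show. For Edaradd and Fgfr2 the knockout arrays were the lower ones in both tissues. Groups did not overlap, in either direction, for 63.8% of all genes in proximal stomach and 49.3% in bladder E18. The Fgfr2 change in proximal stomach was not called by limma (-0.21, adjusted p = 0.0930). The Edaradd difference was lost when its probe sets were averaged (-0.11, adjusted p = 0.829). Between bladder stages the knockout effect on Edaradd differed from E15 to E18 (-2.24, adjusted p = 0.00232) and from E15 to E19 (-1.68, adjusted p = 0.00624). Both knockout arrays lay below both wild-type arrays at each stage. Groups did not overlap for 55.3%, 49.3% and 64.6% of all genes at E15, E18 and E19.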

How the results depend on the processing

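In knockout proximal stomach the calls of Edaradd, Tfap2a and Edar held under each of 14 alternatives, as did those of Edaradd and Fgfr2 in bladder E18 and E19. Of 1743 values of single genes under an alternative, 1662 kept their side of the threshold (83 of them with another sign, called in neither), 61 lost a call, 17 gained one and 3 reversed. With the actin covariate the genes called of 7 were 0 in bladder E15, 2 in the bladder mean, 2 in proximal stomach against bladder E18, and 0 in the differences of E18 and of E19 from E15. The mean of a gene's probe sets gave 1 in large intestine, 2 in proximal stomach against bladder E18, 0 and 1 in the difference of E19 from E15 and from E18, and 3 in wild-type bladder E19 against E18. In that last contrast it reversed Fgfr2 (0.05), Fras1 (-0.30) and Tfap2a (-0.33). Only the arrays compared gave 2 for the difference of E18 from E15, and 4 for wild-type E18 against E15, as did array weights. Leaving out an array gave 2 to 4 genes in the bladder mean, 3 to 4 in proximal stomach against bladder E18, 0 to 1 in the difference of E19 from E18 and 1 to 2 in wild-type bladder E18 against E15. Counts over all genes moved more than 1.5-fold: 959 in bladder E15 fell to 3 with the actin covariate and ran from 126 to 1783 without an array, 441 in bladder E18 ran from 164 to 716, 4448 in proximal stomach fell to 2059 with the actin covariate, 2721 in bladder E19 fell to 1364 without an array, and 2857 in the bladder mean fell to 1185 with the actin covariate. In large intestine 12 ran from 0 to 121, and without an array 0 rose to at most 252 in distal stomach and 14 in small intestine. Replicate numbers were not taken to pair the samples, since same-numbered arrays did not correlate above 0.1 in every tissue: r was 0.25, 0.196 and 0.275 in proximal stomach, distal stomach and large intestine, and -0.127 to -0.003 in small intestine and bladder. With the replicate block the counts were the same, 4 of 7 in proximal stomach and 3 of 7 in bladder E18.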

Other observations

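In knockout distal stomach Trp63 read 7.38 and 8.73, against 7.03 and 7.20 in wild type, and in knockout large intestine 5.99 and 7.51, against 6.44 and 6.36. In knockout bladder E18 Krt15, a basal keratin, read 11.74 and 8.70, and Krt4, a keratin of stratified mucosa, read 11.09 and 8.15, so both keratins were higher on the array with the higher skeletal muscle markers. In knockout proximal stomach Krt15 read 15.13 and 15.07, against 14.36 and 14.59 in wild type, and Krt13 and Krt4 read 14.51 to 14.66 against 14.55 to 14.69, while Krt5 fell from 13.99 to 14.10 to 8.22 to 8.27.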
